A study of Rattus norvegicus with 6 samples.

Results

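The bile ducts of the liver are lined by cholangiocytes, and the genes described here are 9 textbook markers of that epithelium and of simple epithelium in general: Epcam, Krt7, Krt8, Krt18, Krt19, Sox9, Spp1, Cldn4 and Cftr. They were taken from the arrays by the RefSeq accession of each probe. Of the 9 genes, 8 had at least 1 probe, and Sox9, a transcription factor of duct progenitors, was matched by no accession and is not analysed here. The 8 genes had 13 probes among those that named 15645 genes on the array. Liver RNA came from 6 male Sprague-Dawley rats bought at 5 weeks of age, with 1 array per animal. The vehicle group (n = 3) received corn oil. The treated group (n = 3) received TBBC, an antioxidant in which sulfur joins a pair of 6-tert-Butyl-m-Cresol molecules, at 300 mg/kg/day. No genetic change is named for either group. The series text gives 28 days and the treatment protocol gives 9 weeks, so the length of dosing is uncertain.

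Cholangiocytes carry keratin 7 and keratin 19 in addition to the keratin 8 and keratin 18 filaments that hepatocytes also make. They secrete bicarbonate and chloride through the channel CFTR, seal the duct with claudins and shed osteopontin, the product of Spp1. In a ductular reaction, small ducts and progenitor cells multiply and their markers usually appear as a set. Hepatocytes under stress can raise keratin 8 and keratin 18 without new ducts, and EPCAM, an adhesion protein of epithelia, marks both ducts and progenitors.

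The 75th percentile of the processed signal lay between 465.2 and 638.2 over the 6 arrays, and each array had 36919 to 39386 of its 61537 probes well above background. Correlations between arrays over all tested features were 0.975 to 0.991, and vehicle replicate 2 had the lowest 75th percentile. All vehicle arrays lay on slide 1 and all TBBC arrays on slide 2, each slide scanned separately, so slide, scan and treatment cannot be told apart. Each p-value and SE rests on the spread among 3 animals per group, which limma draws towards the spread typical of all features. The number of animals limits the precision. Markers of hepatocytes bore out the tissue label, since all 15 genes of a hepatocyte list were well above background on every array.

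For both markers that rose, and for the keratin 18 gene that pairs with Krt8, a stretch of the sequence before the annotated gene start is shown, which sets the promoters of genes that did and did not pass the test side by side. The stretches are from RefSeq on GRCr8 and run from position -250 to position -79 of the annotated start, 5′ to 3′ on the gene's strand. They lie at chr6:12649757-12649928 (minus strand) for Epcam, chr7:135010418-135010589 (minus strand) for Krt8 and chr7:135035918-135036089 (plus strand) for Krt18. Capitals mark matches to the motifs named after the sequences.
Epcam: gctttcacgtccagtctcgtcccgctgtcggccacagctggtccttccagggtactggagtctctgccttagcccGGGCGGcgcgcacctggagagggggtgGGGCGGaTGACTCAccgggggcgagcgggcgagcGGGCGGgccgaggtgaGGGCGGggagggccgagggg
Krt8: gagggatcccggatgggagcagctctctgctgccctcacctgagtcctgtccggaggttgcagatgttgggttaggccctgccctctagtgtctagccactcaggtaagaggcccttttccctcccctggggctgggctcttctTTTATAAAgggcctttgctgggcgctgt
Krt18: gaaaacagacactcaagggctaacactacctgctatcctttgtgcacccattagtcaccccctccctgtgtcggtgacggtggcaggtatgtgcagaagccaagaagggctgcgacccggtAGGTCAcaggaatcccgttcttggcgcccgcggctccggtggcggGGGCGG
Promoter entries were found for 5 of the 9 markers (Epcam, Krt8, Krt18, Spp1 and Cftr), and 7 short motifs were searched on both strands of the 250 bases before the start. Epcam held 4 GC boxes (GGGCGG) and, at position -141, the letters TGACTCA, a match to the AP-1 motif TGANTCA that reads as a match on either strand. Of 33469 such windows in the table, 30.5% held a GC box and 6.34% the AP-1 motif. The window of Epcam was 75.6% G and C, against a median of 51.2% over all windows. Krt8 held overlapping matches to the TATA box TATAAA on both strands, at positions -106 and -104, a motif present in 12.9% of windows. Of the markers that did not pass, Spp1 held a TATA box at -204 and Cftr GC boxes at -215 and -131. In the table the letters ATG stand at position 1 of Krt8, so its annotated start may lie downstream of where transcription begins. Krt18, on the same chromosome as Krt8, held a GC box at -84 and the nuclear receptor half-site AGGTCA at -129 (14.1% of windows). The motifs TGACNNNGC (core of the antioxidant response element, 10.1% of windows) and CATTCC (TEAD, 12.1%) matched in none of the 5 windows, and ACAATG (SOX, 11.1%) matched only in Spp1. A match describes letters in the window and shows no binding.

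The comparison of TBBC with vehicle asked which of these markers differed after repeated dosing, and whether those that define ducts moved with the rest. Epcam and Krt8 rose with TBBC, by 3.55-fold and 2.69-fold, each read by 1 probe only. Among the markers listed here for ducts, Epcam rose. The others tested did not pass: Krt7, Krt19, Spp1, Cldn4 and Cftr had limma adjusted p-values between 0.302 and 0.779. Krt8 and Krt18 mark simple epithelium, hepatocytes included, and Spp1 is also made by macrophages and stellate cells. Krt18 was higher on every TBBC array than on any vehicle array, by 1.36-fold, and did not pass (adjusted p = 0.0996). Tests were made with limma over 29326 features with Benjamini-Hochberg adjustment and a threshold of 0.05, and 2 of the 8 markers tested rose and 0 fell (3 of the 8 at an unadjusted p under 0.05, which 22.9% of all features reached). Of all features, 3.08% passed, 1.68% as higher and 1.4% as lower. Of the named genes alone, 3.17% passed, 1.88% as higher and 1.29% as lower. The markers were chosen with earlier results of these data known, so setting their count beside these shares is a description and tests no enrichment. The groups did not overlap for 4 of the 8 markers, 3 with TBBC above and 1 with TBBC below, as for 31.1% of all features. In RNA of whole liver, fewer or more cells of a type cannot be told apart from less or more RNA per cell.

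**Figure D1:**
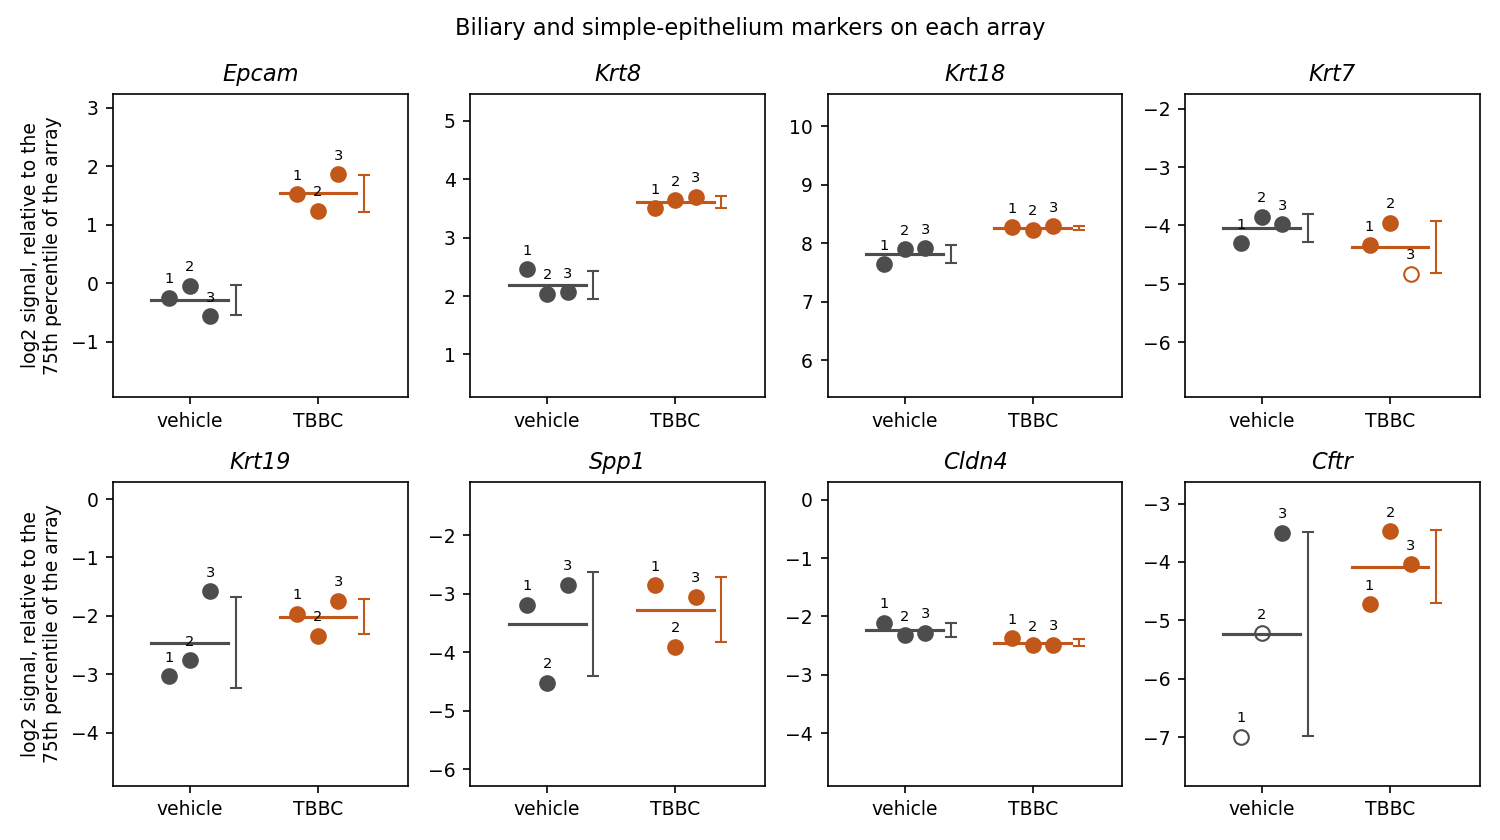
Log2 signal of each marker relative to the array's 75th percentile (vertical axis, 0 being that percentile; every panel spans the same range) for vehicle (grey) and TBBC (orange), 1 point per animal with its replicate number; horizontal bars are group means, error bars 1 SD, and open points were not well above background. Epcam, Krt8 and Krt18 have all TBBC animals above all vehicle animals, Cldn4 has all below, and the groups of Krt7, Krt19, Spp1 and Cftr overlap.

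Epcam encodes a membrane protein that joins epithelial cells to each other. Its signal, as log2 relative to the array's 75th percentile, was -0.25, -0.05 and -0.56 in the vehicle animals and 1.52, 1.24 and 1.86 in the TBBC animals, each in the order of replicates 1 to 3, as for all markers that follow. Every TBBC animal was far above every vehicle animal. On the log2 scale the groups differed by 1.83 ± 0.21 (SE, n = 3 per group, limma adjusted p = 0.0147), with a 95% interval of 1.33 to 2.32. Among the 11235 named genes tested, 72 had a larger rise. Without vehicle replicate 1 the difference was 1.84 and did not pass (adjusted p = 0.0637). Over all 18 alternative settings it lay between 1.66 and 2.04 and the adjusted p between 0.0031 and 0.0654.

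Krt8 encodes keratin 8, the type II keratin of simple epithelium, present in hepatocytes and cholangiocytes alike. Its log2 signal was 2.46, 2.04 and 2.07 on the vehicle arrays and 3.50, 3.64 and 3.70 on the TBBC arrays. The groups stood well apart, and the TBBC animals lay close together (SD 0.10, against 0.24 in vehicle). The difference between groups, as log2, was 1.43 ± 0.15 (SE, n = 3 per group, limma adjusted p = 0.0114), with a 95% interval of 1.07 to 1.78. Without TBBC replicate 2 the difference was 1.41 and did not pass (adjusted p = 0.0640). The adjusted p lay between 0.00443 and 0.0640 over the 18 settings.

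Krt18 encodes keratin 18, the type I keratin that forms filaments with keratin 8. The probe used gave a log2 signal of 7.64, 7.89 and 7.92 in vehicle and 8.27, 8.23 and 8.29 with TBBC. The groups did not overlap, a separation in this direction that 12.3% of all features showed. The log2 difference was 0.45 ± 0.12 (SE, n = 3 per group, limma adjusted p = 0.0996), with a 95% interval of 0.16 to 0.73. The other probes of Krt18 gave 0.48 and 0.59, and no probe of it was saturated on any array. The difference had the same sign in all 18 settings and passed the threshold in 0 of them. Over these settings the limma adjusted p lay between 0.0516 and 0.232, so at its lowest it was close to the threshold.

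Krt7 and Krt19 encode keratin 7 and keratin 19, which separate duct cells from hepatocytes. Krt7 was dim, with log2 signals of -4.31, -3.85 and -3.98 in vehicle and -4.34, -3.95 and -4.83 with TBBC, where 2 of 3 arrays were well above background. The groups overlapped. Its log2 difference was -0.33 ± 0.24 (limma adjusted p = 0.452), with a 95% interval of -0.91 to 0.26, or 0.53-fold to 1.20-fold of vehicle. Krt19 had log2 signals of -3.04, -2.76 and -1.58 in vehicle and -1.97, -2.34 and -1.74 with TBBC. Vehicle replicate 3 had the highest value of all 6 arrays. Krt19 differed by 0.44 ± 0.39 on the log2 scale (limma adjusted p = 0.516, 95% interval -0.48 to 1.37). It was 0.88 without vehicle replicate 3, 0.15 without vehicle replicate 1, 0.29 without vehicle replicate 2, 0.61 without TBBC replicate 2 and 0.31 without TBBC replicate 3, and did not pass in any of these.

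Spp1 encodes osteopontin, a secreted matrix protein of duct cells that macrophages and stellate cells also make. Its log2 signal was -3.19, -4.53 and -2.84 in vehicle and -2.85, -3.91 and -3.05 with TBBC. Replicate 2 was the lowest animal in each group, and the groups overlapped. The log2 difference was 0.25 ± 0.48 (limma adjusted p = 0.779, 95% interval -0.90 to 1.40), and it was -0.25 without vehicle replicate 2. The pooled SD within groups was 0.74 for Spp1, 0.59 for Krt19 and 1.31 for Cftr, against a median of 0.20 over all features, so their intervals were wide and a difference inside them was not detectable here.

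Cldn4 encodes claudin 4, a tight junction protein of duct epithelium. Its brighter probe had log2 signals of -2.10, -2.32 and -2.28 in vehicle and -2.38, -2.49 and -2.48 with TBBC. All TBBC animals lay below all vehicle animals, as for 18.8% of all features. The log2 difference was -0.21 ± 0.11 (limma adjusted p = 0.302), with a 95% interval of -0.48 to 0.06. The dimmer probe gave -0.68 ± 0.22 (adjusted p = 0.137 with every probe tested on its own), and with spike-in controls as the scale the brighter probe differed by -0.00. That scaling moves the median of all features by 0.21, from -0.06 to 0.15.

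Cftr encodes the chloride channel of duct cells. Of its 3 probes, 2 were not well above background on any array. The third was well above it on all 3 TBBC arrays but on only 1 vehicle array, so it entered the test only through the TBBC group. Its log2 signals were -6.99, -5.22 and -3.50 in vehicle and -4.72, -3.47 and -4.04 with TBBC. Vehicle replicate 3 lay within the range of the TBBC animals and the groups overlapped. The log2 difference was 1.16 ± 0.84 (limma adjusted p = 0.436, 95% interval -0.85 to 3.16), 0.28 without vehicle replicate 1 and 2.03 without vehicle replicate 3. With normexp it was 0.083.

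**Figure D2:**
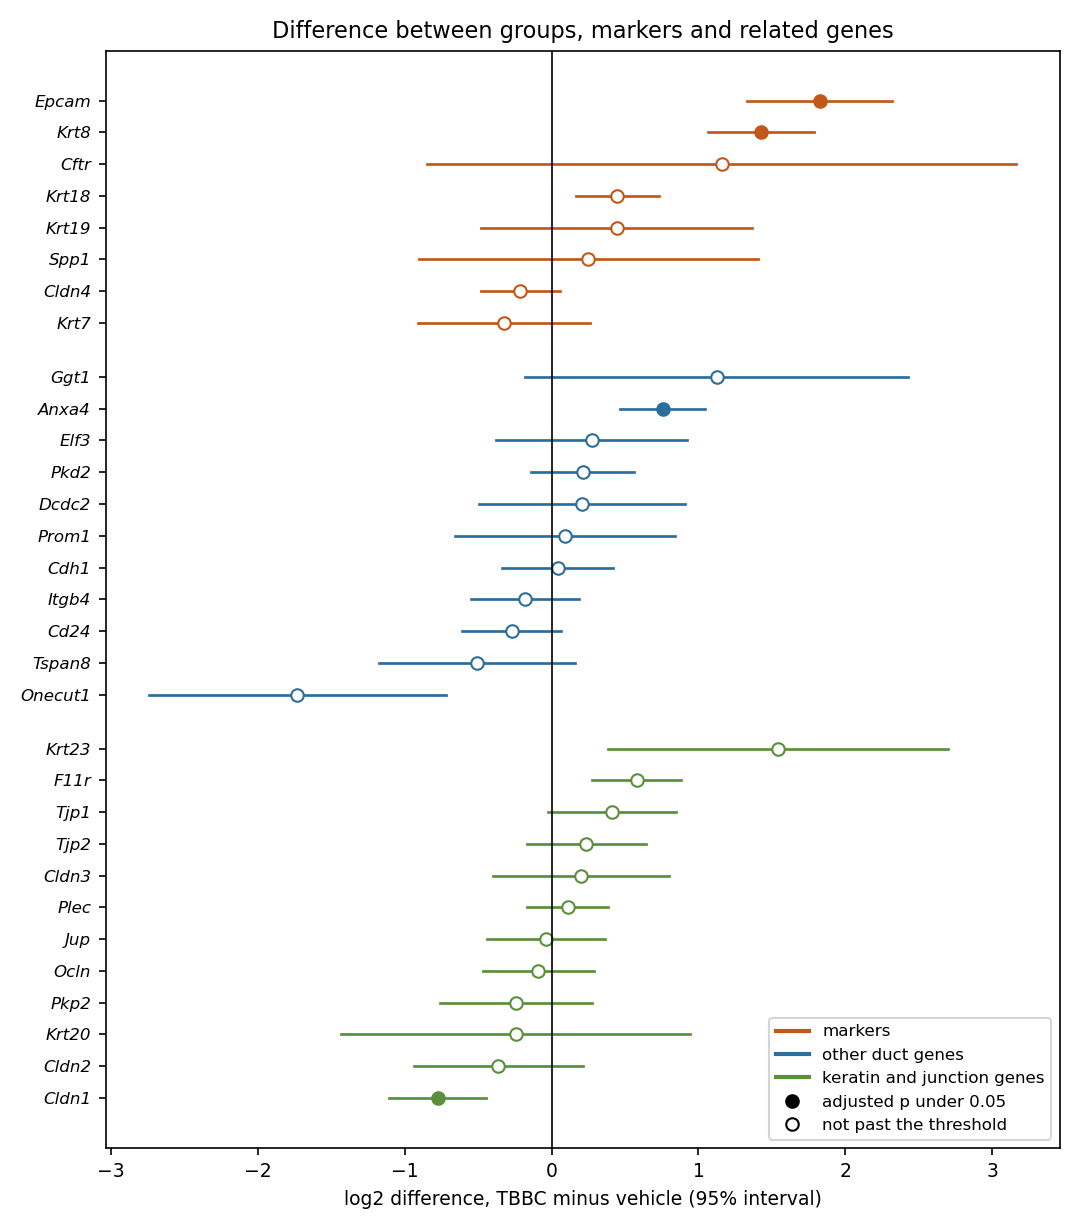
Log2 difference between TBBC and vehicle (horizontal axis) with its 95% interval for genes of 3 lists, the markers (orange), other duct genes (blue) and keratin and junction genes (green); filled points passed an adjusted p of 0.05. The intervals of Epcam and Krt8 lie above 1, and those of Krt7 and Cldn4 end at 0.26 and 0.06.

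The responses of Epcam and Krt8 were set beside those of the other markers as the gap between the log2 values of 2 genes on the same array. The 12 pairs were formed from the calls, 2 markers that rose against 6 that did not pass, so the change of a gap is a description and supports no difference in response. The gap between Epcam and Krt7 grew by 2.15 on the log2 scale, between Epcam and Cldn4 by 2.04, between Krt8 and Krt7 by 1.75 and between Krt8 and its filament partner Krt18 by 0.98. In 7 of the 12 pairs every TBBC array lay beyond every vehicle array: Epcam with Krt7, Krt18, Krt19 and Cldn4, and Krt8 with Krt7, Krt18 and Cldn4. In the pairs with Spp1 and Cftr and in that of Krt8 with Krt19 the arrays overlapped. With normexp, another background correction, they stood apart in all 12 pairs. The pairs with Cftr rest on a vehicle signal that was well above background on 1 array only, and their gaps were 0.67 with Epcam and 0.27 with Krt8, against 1.60 and 1.17 with normexp.

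Among 18 other genes of ducts and duct progenitors, 12 were tested. Of these 1 rose, 11 did not pass and 0 fell. The median log2 difference was 0.07, against -0.06 over all features. The riser was Anxa4, a calcium-dependent membrane-binding protein, at 0.76 ± 0.12 (limma adjusted p = 0.0329), and its 2 probes gave 0.74 and 0.76. Its log2 signal was 0.89, 0.72 and 0.81 in vehicle and 1.71, 1.43 and 1.55 with TBBC, without overlap. The call was lost when any 1 of the 6 arrays was left out. Among genes named for their roles after the values were seen, Prom1, a progenitor surface protein, differed by 0.09 ± 0.31 and Cdh1, E-cadherin, by 0.04 ± 0.16. These lay closest to no difference in the list. The highest value in the list, also named after it was seen, was that of Ggt1. It was 1.13 ± 0.54 (limma adjusted p = 0.27), with overlapping groups. Tspan8 differed by -0.51 ± 0.28 (limma adjusted p = 0.321), also with overlap. The summed signal of the list, in multiples of the array's 75th percentile, was 37.2 to 47.5 in vehicle and 23.1 to 30.5 with TBBC. The lowest value in the list, named after it was seen, was that of Onecut1, a transcription factor of hepatocyte and duct precursors, at -1.73 ± 0.42 (adjusted p = 0.0845). Its log2 signal was 4.56, 4.84 and 4.43 in vehicle and 3.11, 1.90 and 3.63 with TBBC, every TBBC animal below every vehicle animal. Without Onecut1, a choice made after seeing the data, the summed signal of the list overlapped between groups, at 15.7 to 19.3 in vehicle and 18.1 to 20.4 with TBBC. These sums mostly follow the brightest genes and say little about the dimmer ones. The brightest were Onecut1 (mean log2 4.61 in vehicle, 2.88 with TBBC) and Cdh1 (3.48 and 3.52). The hormone receptor Sctr, through which secretin drives ductal secretion, was nowhere well above background.

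Of 15 genes of keratin partners, desmosomes and tight junctions, 12 were tested; 0 rose, 1 fell and 11 did not pass, with a median of 0.04. Cldn1, a claudin of hepatocyte and duct junctions, fell by 0.78 on the log2 scale (SE 0.14, limma adjusted p = 0.0408). Its other probes gave -0.54 and -0.42. The call held in 6 of 18 settings, and it was lost when any 1 of the 6 arrays was left out, with median centring, with spike-in scaling and with normexp. Krt23, a keratin of injured epithelium named after its value was seen, differed by 1.54 ± 0.48 (limma adjusted p = 0.135). It was well above background in 1 vehicle animal and 3 TBBC animals, so it entered the test only through the TBBC group. Also named for their roles, the junction genes Tjp1 and Ocln differed by 0.41 ± 0.18 and -0.09 ± 0.16, and Plec, which anchors keratin filaments, by 0.11 ± 0.12. F11r, a tight junction gene named after its value was seen, differed by 0.58 ± 0.13 (limma adjusted p = 0.0668). All its TBBC animals lay above all vehicle animals, as for 12.3% of all features. The direction of the list's calls depended on the setting: 1 rose and 0 fell with median centring. With normexp 2 rose and 0 fell, and with spike-in scaling 0 passed.

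No gene passed limma's test in 4 further lists of duct biology. Counts at an unadjusted p under 0.05 are given with each, beside 22.9% of all features. In ductal secretion (9 tested, 1 such gene, median -0.08), the bicarbonate exchanger Slc4a2 differed by -0.29 ± 0.14 and the adenylyl cyclase Adcy6 by -0.08 ± 0.12. In Notch, YAP and TGF beta signalling (16 tested, 2 such genes, median -0.15), Lats2, a kinase that restrains YAP, differed by 0.13 ± 0.10 and the receptor Notch1 by -0.51 ± 0.36. Among osteopontin receptors and processing enzymes (9 tested, 2 such genes, median -0.00), the transglutaminase Tgm2 differed by 0.26 ± 0.20 and the integrin Itgb5 by -0.10 ± 0.11. Among progenitor response genes (9 tested, 2 such genes, median 0.05), the cytokine Tnfsf12, also called TWEAK, differed by 0.05 ± 0.14 and the fetal plasma protein Afp by -0.89 ± 0.24 (adjusted p = 0.0994). Osmr, the oncostatin M receptor gene, named after its value was seen, differed by 1.87 ± 0.46 (adjusted p = 0.0859). Its log2 signal was -5.68, -5.66 and -4.73 in vehicle, well above background in 1 animal, and -4.46, -2.97 and -3.03 with TBBC, without overlap. Osmr entered the test only through the TBBC group, so its separation and its size are a description. Without TBBC replicate 1 it was the 1 gene of the list that passed, and with all arrays it did not pass.

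**Figure D3:**
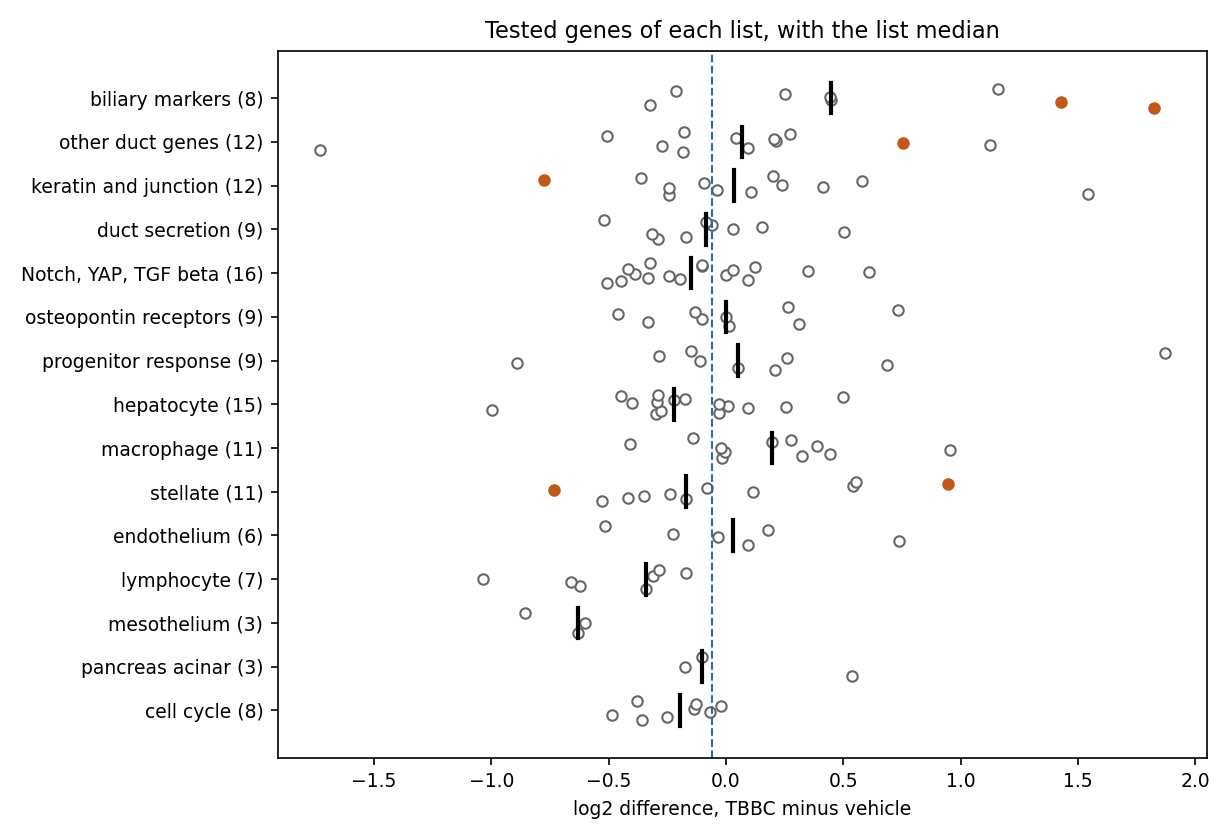
Log2 difference between TBBC and vehicle (horizontal axis) of each tested gene, by list, with the number tested in brackets; black bars are list medians, filled points passed an adjusted p of 0.05, and the dashed line is the median of all features, -0.06. Of the 15 lists, the markers have the highest median, 0.45, and 2 of their 8 points are filled. Markers and lists were chosen with earlier results of these data known, so this order is a description.

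Other cells of the liver also make some of these markers, and their own genes were read on the same arrays. Of 11 macrophage genes tested, 0 passed limma's test (1 at an unadjusted p under 0.05, median 0.20), and the brightest, Clec4f and Cd68, each differed by -0.02. Differences in this list ran from -0.41 to 0.95, 6 positive and 5 negative. The highest, 0.95 ± 0.26 (limma adjusted p = 0.1045), was the gene at an unadjusted p under 0.05. All its TBBC animals lay above all vehicle animals, as for 12.3% of all features. Vehicle replicate 3 was the highest vehicle animal for 10 of the 11 and TBBC replicate 3 the highest TBBC animal for 9. The summed signal of the list, in multiples of the array's 75th percentile, was 48.4 to 105.8 in vehicle and 58.1 to 116.04 with TBBC. Vehicle replicate 3 was also the highest vehicle animal for Krt19, Spp1, Cftr and Krt18. The highest TBBC animal was replicate 3 for Krt19 and Krt18, replicate 1 for Spp1 and replicate 2 for Cftr. The part of macrophages in these values was not tested. Of 11 stellate cell genes, the pericyte regulator Rgs5 rose by 0.95 ± 0.12 (adjusted p = 0.0213) and the growth factor receptor Pdgfrb fell by 0.73 on the log2 scale (adjusted p = 0.0461). Each of these calls was lost when any 1 of the 6 arrays was left out. The summed signal of that list overlapped between groups (28.3 to 38.8 and 30.1 to 37.8).

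Mesothelium, the surface layer of the liver, makes keratin 8 and keratin 18 too. Its 3 tested genes, Msln, Upk1b and Calb2, differed by -0.63, -0.60 and -0.86, with overlapping groups (0 passed, 0 at an unadjusted p under 0.05), and Wt1 and Cldn15 were nowhere well above background. The summed signal of the list was 0.66 to 1.39 in vehicle and 0.37 to 0.86 with TBBC. Of 3 tested acinar genes of the pancreas, 0 passed, and Cela1, Prss1 and Pnlip were nowhere well above background. Of 8 tested cell cycle genes 0 passed (0 at an unadjusted p under 0.05). Their difference was negative for 8 of 8 as scaled here, as for 57.6% of all features, and for 4 of 8 with spike-in scaling, so no common direction is given. None of the 15 hepatocyte genes passed (4 at an unadjusted p under 0.05, median -0.22). The summed signal of the hepatocyte list was 5515 to 5737 with TBBC against 6171 to 7218 in vehicle, without overlap. With spike-in scaling the groups overlapped, the TBBC mean being 98.2% of the vehicle mean in place of 84.9%, and the list median was -0.01. The part of this list in the rise of Epcam and Krt8 was not tested. None of 6 endothelial genes passed (1 at an unadjusted p under 0.05, median 0.03), nor of 7 lymphocyte genes (2 at an unadjusted p under 0.05, median -0.34). The lymphocyte differences were negative for 7 of 7 as scaled here and with median centring, and for 6 of 7 with spike-in scaling. Of all features, 57.6%, 45.8% and 31.7% were negative in these 3 scalings. The direction of the list was not tested.

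The genes whose pattern over the 6 arrays was most like that of Epcam and Krt8 were sought among 10775 other named genes well above background on all arrays, by the root mean square difference of log2 values, each gene centred on its own mean. For Epcam they were the phosphoribosyltransferase-like gene Prtfdc1 (0.20), the homeobox gene Meox2 (0.23) and the small membrane protein gene Smim22 (0.25), which rose by 1.56, 1.93 and 1.63. For Krt8 they were the amyloid precursor gene App (0.17), the organic anion carrier Slco1a6 (0.18) and the phosphomevalonate kinase gene Pmvk (0.19), which rose by 1.51, 1.56 and 1.17. These 6 genes were picked for their likeness, so their rise is a description.

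**Figure D4:**
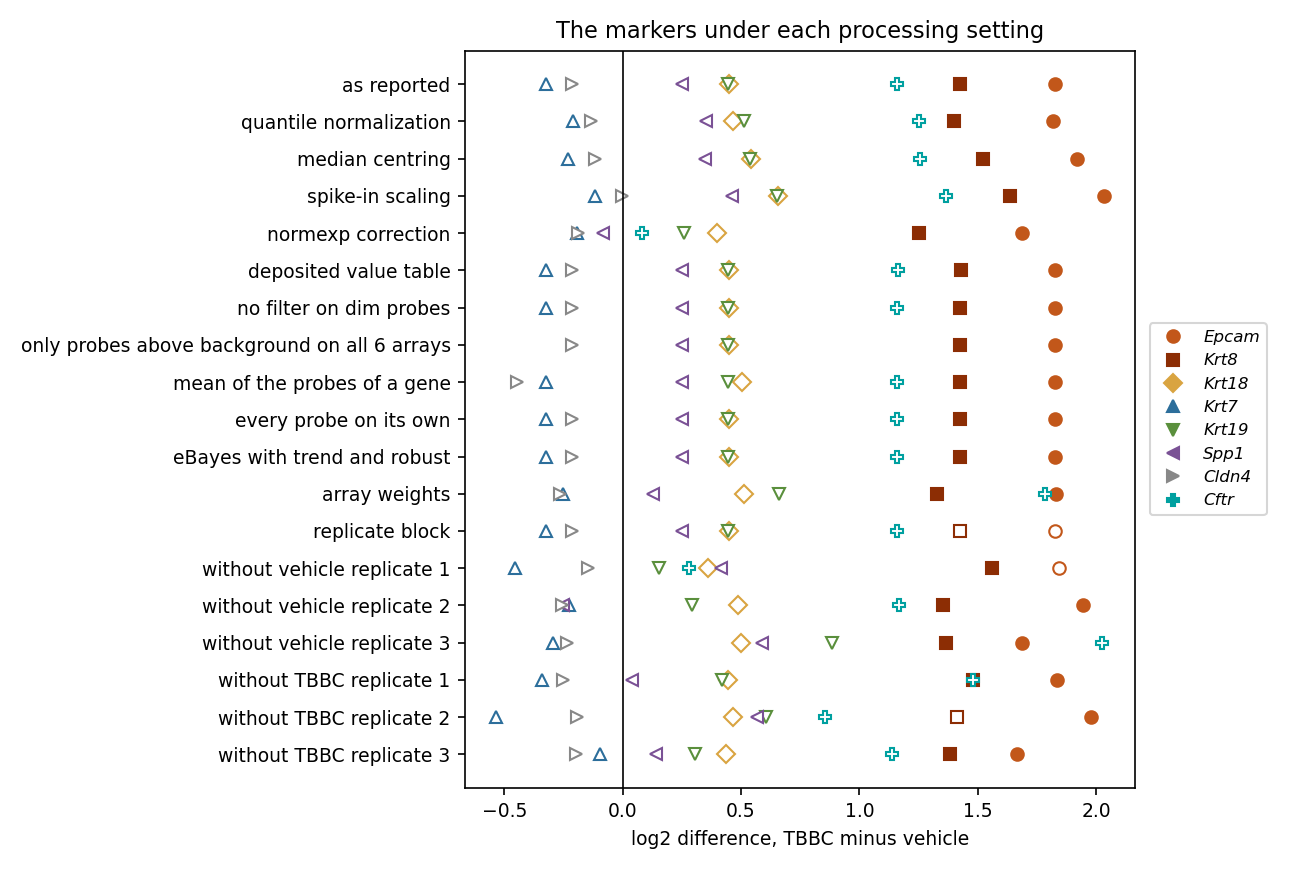
Log2 difference between TBBC and vehicle (horizontal axis) of each of the 8 markers as reported and under 18 other settings (17 for Krt7 and Cftr, which are not well above background on all arrays); filled symbols passed an adjusted p of 0.05. Epcam and Krt8 keep a difference of at least 1.25 in each setting and were past the threshold in 16 of 18 each; the other 6 markers passed in 0 of the settings run for them.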

How the data were processed

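The authors extracted 1 Agilent 1-colour (Cy3) array per animal with Feature Extraction 10.7.1.1, per the file headers, and deposited its processed spot intensity, which is background-subtracted and on a linear scale. Their deposited value table holds the same intensity times 1 constant per array. Values used here are log2 of the processed intensity minus that of the array's 75th percentile. Control spots and 25 probes with an outlier flag were left out, and a probe was kept if every array of either group had it well above background. Probes were named through RefSeq accessions in a gene table of GRCr8 (28206 of 61537); the array design names rn4, so no probe coordinates are given. A gene is its probe with the highest mean. The test between groups was two-sided, with lmFit and eBayes of limma 3.58.1 (R 4.3.3) and no covariate; the script was tested on simulated data. Pairs of markers were formed from the calls and are described only; the planned exact permutation test of them is not used. Named were all members, up to 3 genes past the threshold of each other list or otherwise up to 2 with the highest signal, and the 3 genes most like each member that passed. The members and lists were chosen with earlier results of these data known. Alternatives were other scalings (quantile, median, spike-in), normexp with an offset of 50 on median spot intensity, the deposited table, other filters, other uses of probes, other variance models, a replicate block and leaving out each array. The design had foreseen a slide block, which could not be fitted because each slide holds 1 group. Some genes of the lists are not reported by name here and are not plotted by name, but count in the list totals.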

Additional observations from a re-analysis of the deposited data

How the results depend on the processing

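Epcam and Krt8 kept their direction in all 18 settings and their call in 16 each. With the replicate block, 0 markers passed (limma adjusted p = 0.0655 for Epcam and 0.0557 for Krt8). In that setting 0 genes of the other lists passed, and 211 features in place of 902. Deviations of same-numbered arrays correlated at 0.00, -0.02 and 0.14, and those of differently numbered arrays at -0.10 to 0.09. The labels do not say whether equal replicate numbers share anything. Leaving out 1 array gave 104 (without TBBC replicate 2) to 365 features (without TBBC replicate 1), 1 to 2 markers and 0 to 2 genes of the other lists (4 as reported). The number of features was 1589 with normexp and 194 without a filter on dim probes, where more features were tested. For genes of the other lists, the count was 2 with spike-in scaling, 0 without the filter and 7 with trend and robust. With normexp the groups stood apart in all 12 pairs of markers (7 as reported). The pairs were formed from the calls, so this count is a description and supports no difference in response. Spp1 changed sign with normexp (-0.085) and without vehicle replicate 2 (-0.25, the lowest of -0.25 to 0.59 when 1 array was left out). Of the features called, 54.5% were higher, against 70.9% with median centring and 80.7% with spike-in scaling. Of 252 list medians under other settings, 251 moved by less than the spread between replicates; the other was that of the hepatocyte list with spike-in scaling, -0.01 in place of -0.22. A slide block could not be fitted because each slide holds 1 group. Signal over background limits Cftr and Krt7, and the dim probes of Krt19 and Spp1 carry the widest spread besides Cftr.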
